A study of Mus musculus with 71 samples.

Results

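The partial homeodomain (HD) of Pax5 was deleted from the endogenous gene, and the RNA of Pax5 ∆HD/∆HD pro-B cells was compared with that of Pax5 +/+ pro-B cells. The comparison rests on 4 samples of the 48 RNA samples with expression values in the series: ∆HD/∆HD replicates 1 and 2, and the +/+ replicates 3 and 4, which were read in the same way (100-nt reads). Of 25579 genes listed, 12562 were above 1 TPM, the read count scaled for gene length and depth, in at least 1 of the 4 libraries and were tested. All cells were of strain C57BL/6 and were sorted directly from bone marrow, with a gate that includes B220 and Kit and leaves out cells with CD2, IgD or IgM, and polyadenylated RNA was sequenced. The other genotypes used were ∆OP/∆OP, which lacks the octapeptide (OP), ∆OP,HD/∆OP,HD, which lacks both motifs, and progenitors without Pax5 (Vav-Cre Pax5 fl/fl). In these progenitors Cre is driven by Vav regulatory sequences, active throughout the blood system, and the cells were sorted as Lin−Ly6D+B220+ with high Kit, a gate other than that of the pro-B cells. The age and number of mice behind each library, and whether libraries came from separate mice, are not given in the sources used here. The p-values therefore measure the spread between these samples.

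Pax5 is the transcription factor that commits lymphoid progenitors to the B cell lineage. It binds DNA through its paired domain, and activates B cell genes while it represses genes of other lineages. The octapeptide recruits Groucho corepressors of the Tle family. The partial homeodomain keeps only the start of a homeodomain, does not bind DNA by itself, and is known to contact the TATA-binding protein and the retinoblastoma protein.

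The deletion took 78 bases, or 26 whole codons, out of exon 6 of Pax5, on chromosome 4. This is 6.63% of the coding sequence. The allele was made in C57BL/6 × CBA zygotes with Cas9, 2 guides and a repair template of 200 nt, and was then backcrossed to C57BL/6.

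Pax5 itself was measured at 342 and 360 TPM in +/+ cells and at 468 and 461 TPM in ∆HD/∆HD cells. The ∆HD/∆HD libraries lay above both +/+ libraries, but the difference did not pass the test in limma (log2 fold change 0.40, SE 0.10, adjusted p = 0.155) or edgeR, and passed in DESeq2. The deletion is in frame and takes out only part of 1 exon, so a value for the whole gene does not check the genotype. The sorted cells carried the pro-B programme in all 4 libraries: Igll1, a surrogate light chain gene, stood at 5285 to 6029 TPM, and Dntt, which encodes terminal transferase, at 3158 to 4728 TPM. Depth was 28928773 to 38625581 reads in genes.

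Some libraries stood apart in genes of other cells. The summed level of 24 neutrophil-lineage genes was 1034 TPM in +/+ replicate 3 and 7436 TPM in +/+ replicate 4, against 584 and 1946 TPM in ∆HD/∆HD replicates 1 and 2. The alarmin gene S100a9 alone reached 3140 TPM in +/+ replicate 4, and 184 TPM in +/+ replicate 3. Every library held both Xist and transcripts of the Y chromosome, and Ddx3y stood at 12.7 TPM in +/+ replicate 4 and at 3.07 to 3.66 TPM in the other 3. In RNA of whole cell pools, fewer cells of a type and less RNA per cell cannot be told apart.

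Few genes passed all thresholds between ∆HD/∆HD and +/+ cells, and the number called depended on the test and on the number of libraries. Of 12282 genes outside the immunoglobulin and histone families, 24 (0.195%) passed 3 thresholds together: an adjusted p under 0.05 in limma, more than 3-fold change, and an average over 5 TPM for either genotype. Of these, 17 were lower and 7 higher in ∆HD/∆HD cells. By the adjusted p alone, 81 genes (0.66%) were called, 40 lower (0.326%) and 41 higher (0.334%), with a median fold change of 2.37. In all 81 the ∆HD/∆HD libraries did not overlap the +/+ libraries, which across all genes held for 15.4% below both and 23.0% above both. The median log2 fold change of all genes was 0.01. At an unadjusted p under 0.05 in limma there were 1577 of the 12562 genes tested (12.6%). By the adjusted p alone, edgeR called 199 genes and DESeq2 463, on whole reads recovered from the TPM.

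These calls depend on the number of libraries. Leaving out +/+ replicate 3, ∆HD/∆HD replicate 1 or ∆HD/∆HD replicate 2 left 0 genes past the thresholds in limma (2506, 887 and 1352 genes at an unadjusted p under 0.05), and leaving out +/+ replicate 4 left 3, Ptpn3, Bfsp2 and Gimap3. In size, 18 of the 24 genes stayed over 3-fold whichever of the 4 libraries was left out. The exceptions were C1qa, Grb7, Hdac11, Kcng1, Muc13 and Spsb4. With whole reads recovered from the TPM, edgeR called 33 genes and DESeq2 41 past the same thresholds, and 20 of the 24 were among the calls of each.

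**Figure D1:**
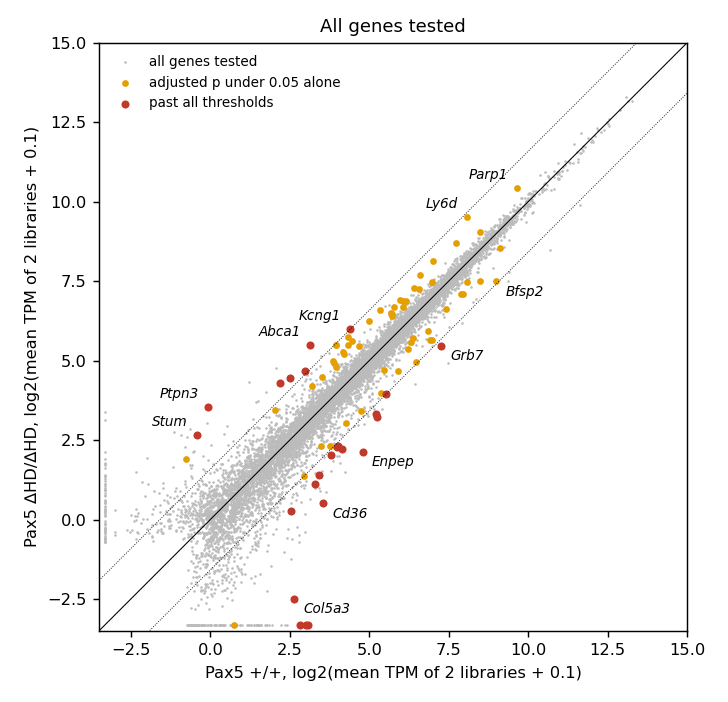
Mean expression in Pax5 ∆HD/∆HD (vertical axis) against Pax5 +/+ pro-B cells (horizontal axis), log2(mean TPM of 2 libraries + 0.1), 1 point per gene tested. Most genes lie on the diagonal, dotted lines mark a 3-fold difference, the 24 genes past all thresholds are red and the 57 called by the adjusted p alone are orange.

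Several of the 17 genes that fell encode signalling and membrane proteins. Grb7, an SH2-domain adaptor of receptor tyrosine kinases (chr11:98446834-98455373), had the highest level of the 17, at 172 and 135 TPM in +/+ cells and 52.6 and 35.5 TPM in ∆HD/∆HD cells. Every ∆HD/∆HD library lay well below every +/+ library, and the gene fell 3.52-fold (log2 fold change −1.82, SE 0.26, adjusted p = 0.0339). Enpep encodes aminopeptidase A, the BP-1 antigen used to stage early B cells (chr3:129269177-129332749). It stood at 25.4 and 29.7 TPM in +/+ cells and at 4.73 and 3.81 TPM in ∆HD/∆HD cells, a 6.34-fold fall (log2 fold change −2.67, SE 0.32, adjusted p = 0.0168). The groups lay far apart relative to their own spread.

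Pde9a, a phosphodiesterase that breaks down cyclic GMP, was at 33.8 and 41.1 TPM in +/+ cells and at 9.99 and 8.57 TPM in ∆HD/∆HD cells (4.00-fold lower, SE of the log2 fold change 0.16, adjusted p = 0.00655). Cacna1e, the pore-forming subunit of an R-type calcium channel, was at 18.0 and 17.2 TPM against 5.03 and 4.08 TPM (3.83-fold lower, adjusted p = 0.00852). In both genes the 2 libraries of each genotype were close together. Hdac11, a histone deacetylase, fell from 48.8 and 43.0 TPM to 18.9 and 11.6 TPM (3.08-fold, adjusted p = 0.0380). Spsb4, a SOCS-box adaptor of a ubiquitin ligase, fell from 14.9 and 12.4 TPM to 3.29 and 4.71 TPM (3.40-fold, adjusted p = 0.0339). Both were among the genes that dropped under 3-fold with 1 library left out.

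Col5a3, a collagen V chain, was nearly lost. It was at 5.94 and 6.25 TPM in +/+ cells, at 0 in ∆HD/∆HD replicate 1 and at 0.155 TPM in replicate 2 (log2 fold change −5.28, SE 0.61, adjusted p = 0.0156). Dnase1l3, a nuclease that digests chromatin outside cells, fell from 9.95 and 11.4 TPM to 3.16 and 1.92 TPM (4.19-fold, adjusted p = 0.0428). Zkscan16, a zinc finger gene (chr4:58943568-58962624), fell from 4.65 and 6.64 TPM to 1.07 and 1.16 TPM (4.66-fold, adjusted p = 0.0289).

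A set of 3 short features had reads in +/+ but not in ∆HD/∆HD cells. TCRB_Jb2-S7, a joining segment of the T cell receptor beta locus, had 6 and 4 reads in +/+ cells, the microRNA gene Mir7089 9 and 5, and Mir1982 11 and 2. All 3 had 0 reads in both ∆HD/∆HD libraries. Against a limit of 3 reads over the group, they were at least 3.65-fold, 5.11-fold and 4.74-fold lower. Neither edgeR nor DESeq2 called them on reads, and this limit covers counting error only. TCRB_Jb2-S7 and Mir7089 were also at 0 in every ∆OP/∆OP and ∆OP,HD/∆OP,HD library, while Mir1982 was not. In +/+ replicates 1, 2 and 5, Mir7089 was at 1.27, 0 and 0 TPM, and TCRB_Jb2-S7 at 3.74, 4.17 and 4.34 TPM. For Mir7089, a value of 0 was thus also found in +/+ cells.

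The last 5 of the 17 genes are on the macrophage list. C1qa and C1qc, chains of the complement protein C1q, were at 15.3 and 16.5 TPM and at 15.9 and 16.5 TPM in +/+ cells, and at 5.49 and 3.94 TPM and at 5.33 and 4.50 TPM in ∆HD/∆HD cells (adjusted p = 0.0475 for each). Hmox1, heme oxygenase 1, fell from 36.0 and 38.4 TPM to 11.3 and 8.52 TPM (3.77-fold, adjusted p = 0.0183). Cd36, a scavenger receptor that takes up fatty acids, fell from 8.90 and 14.3 TPM to 1.12 and 1.53 TPM (8.08-fold, adjusted p = 0.0123). Fcna, the lectin ficolin A, fell from 11.0 and 8.21 TPM to 2.23 and 1.92 TPM (4.43-fold, adjusted p = 0.0428). In each of the 5, both ∆HD/∆HD libraries were below both +/+ libraries.

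Of 28 macrophage genes tested, these 5 fell, 1 rose (Trf, transferrin) and 22 did not pass in limma, while 22 of 28 were below both +/+ libraries, and the median log2 fold change was −1.48. At an unadjusted p under 0.05 there were 19 of the 28, and on recovered reads edgeR called 8 lower and 2 higher, and DESeq2 12 lower and 2 higher. Across all genes, 12.6% were at an unadjusted p under 0.05 and 15.4% lay below both +/+ libraries. The summed level of the list was 996 and 1327 TPM in +/+ and 1081 and 1148 TPM in ∆HD/∆HD cells, with Trf alone at 222 and 199 TPM against 411 and 428 TPM. The lysosomal genes Ctsd, Ctsb and Lyz2 weigh most beside it, and none of the 3 passed. In +/+ replicates 1, 2 and 5, which had 50-nt reads, it was 726 to 838 TPM, and 4 of the 5 fallen genes were also below both 100-nt +/+ libraries there: C1qa stood at 6.09 to 10.8 TPM, C1qc at 7.01 to 12.5 TPM, Fcna at 4.19 to 4.44 TPM and Hmox1 at 10.3 to 15.6 TPM. Cd36 was not, at 9.51 to 14.4 TPM. The part of macrophage RNA in these results was not tested. Without the members of all marker lists, 19 genes stayed past the thresholds, 12 lower and 7 higher.

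**Figure D2:**
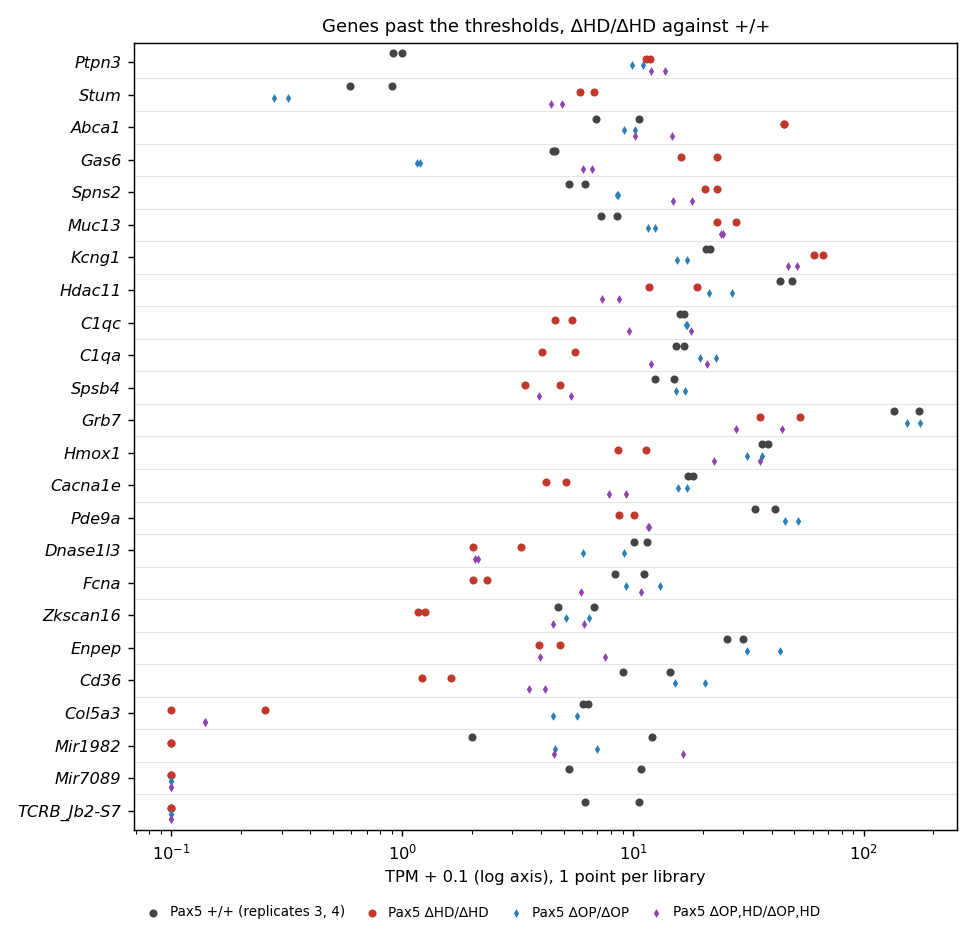
TPM + 0.1 (logarithmic axis) of the 24 genes past the thresholds, 1 point per library of the 4 genotypes with 100-nt reads. The ∆HD/∆HD and +/+ points do not overlap in any of the 24. The ∆OP,HD/∆OP,HD points lie near ∆HD/∆HD for genes such as Pde9a, Enpep and Kcng1, and near +/+ for Hmox1, Abca1 and Zkscan16.

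Among the 7 genes that rose, Ptpn3 had the smallest adjusted p of all genes. It encodes a protein tyrosine phosphatase with FERM and PDZ domains (chr4:57190841-57339040). It was at 0.898 and 0.815 TPM in +/+ cells and at 11.3 and 11.7 TPM in ∆HD/∆HD cells, 12.1-fold higher (log2 fold change 3.60, SE 0.20, adjusted p = 0.00178). Abca1, the transporter that exports cholesterol from cells (chr4:53030789-53159988), rose from 6.84 and 10.5 TPM to 45.0 and 44.8 TPM (5.25-fold, log2 SE 0.25, adjusted p = 0.0125). For both genes the lower ∆HD/∆HD value was several times the higher +/+ value.

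Stum, named after a fly gene of mechanosensation, was near silent in +/+ cells at 0.491 and 0.803 TPM, and reached 6.68 and 5.76 TPM in ∆HD/∆HD cells (8.63-fold, adjusted p = 0.0227). Gas6, the ligand of the Tyro3, Axl and Mertk receptors, rose from 4.38 and 4.49 TPM to 22.9 and 16.1 TPM (4.26-fold, adjusted p = 0.0168). Spns2, the exporter of sphingosine-1-phosphate, rose from 6.06 and 5.15 TPM to 20.4 and 23.1 TPM (3.84-fold, adjusted p = 0.00852). None of these groups overlapped.

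Muc13, a transmembrane mucin, rose from 7.16 and 8.39 TPM to 27.8 and 22.9 TPM (3.23-fold, adjusted p = 0.00852). Kcng1, a modulatory subunit of voltage-gated potassium channels, rose from 21.4 and 20.6 TPM to 60.7 and 66.3 TPM (3.01-fold, adjusted p = 0.00655). Kcng1 lies just inside the fold threshold, and Gimap3, a GTPase of lymphocytes at 13.5 and 17.2 TPM in +/+ and 46.9 and 42.8 TPM in ∆HD/∆HD cells, just outside it (2.93-fold, adjusted p = 0.00852).

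A further 57 genes passed the adjusted p but not the fold or level threshold, 34 higher and 23 lower. Several of them are highly expressed. Ly6d, a surface protein that marks B-cell-biased progenitors, rose from 298 and 239 TPM to 768 and 703 TPM (2.75-fold, adjusted p = 0.00852). Parp1, the poly(ADP-ribose) polymerase of DNA repair, rose from 854 and 751 TPM to 1425 and 1340 TPM (1.72-fold, adjusted p = 0.0183). Trf rose from 222 and 199 TPM to 411 and 428 TPM (2.00-fold, adjusted p = 0.00852). In all 3 the 2 ∆HD/∆HD libraries were close to each other and above both +/+ libraries.

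The other genes with the smallest p among those that rose were Ndrg1 (2.41-fold), Oaf (2.63-fold), Lynx1 (2.28-fold), which modulates nicotinic receptors, Alad (2.39-fold), an enzyme of heme synthesis, Fam129b (2.22-fold) and Coro2a (1.74-fold), an actin-binding coronin. Among those that fell, Bfsp2, a lens filament gene, was at 606 and 419 TPM in +/+ cells and 191 and 171 TPM in ∆HD/∆HD cells (2.79-fold, adjusted p = 0.0141). Slc1a5, the glutamine transporter ASCT2, fell from 322 and 388 TPM to 181 and 180 TPM (1.96-fold, adjusted p = 0.0141). Bcat1, which starts the breakdown of branched-chain amino acids, fell from 37.7 and 45.3 TPM to 14.9 and 16.3 TPM (2.64-fold, adjusted p = 0.0141). Both belong to amino acid metabolism, and in neither did the groups overlap.

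Nedd9, a scaffold of adhesion signalling, fell 1.82-fold, Cep164, a centriole protein, 2.37-fold, and the deubiquitinase gene Uchl1 1.73-fold. The falls of Tmem132e (2.82-fold), P2rx3 (2.50-fold), an ATP-gated channel, Gstp1 (1.70-fold), a glutathione transferase, and Eif2ak3 (1.66-fold), the stress kinase PERK, complete the genes named by p. The adjusted p of these 7 genes lay between 0.0156 and 0.0209 in limma.

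Of 30 early B-lineage genes, 0 passed in limma (8 at an unadjusted p under 0.05, 5 called by edgeR and 8 by DESeq2), and the median log2 fold change was −0.06. The share of all genes tested at an unadjusted p under 0.05 was 12.6%, to be set beside the counts of this and the following lists. Dntt was at 3158 and 3373 TPM in +/+ and at 4728 and 4342 TPM in ∆HD/∆HD cells (adjusted p = 0.0776). The groups did not overlap, and edgeR and DESeq2 called it.

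Of 28 genes of pre-BCR and BCR signalling, 1 rose and 1 fell in limma, with a median of 0.05. At an unadjusted p under 0.05 there were 9, and edgeR called 1 higher and 2 lower, DESeq2 2 higher and 3 lower. Plcg2, the phospholipase downstream of the receptor, rose from 348 and 368 TPM to 517 and 528 TPM (1.46-fold, adjusted p = 0.0377). Pik3ap1, the BCAP adaptor that links the receptor to PI3 kinase, fell from 598 and 520 TPM to 371 and 366 TPM (1.51-fold, adjusted p = 0.0377). Cd79a and Cd79b, the signalling chains of the receptor, and Blnk, its adaptor, did not pass (adjusted p = 0.408, 0.446 and 0.659).

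Of 11 genes that Pax5 is known to repress, 0 passed in limma (3 at an unadjusted p under 0.05, 0 in edgeR and 1 in DESeq2, Notch1), 4 were above and 1 below both +/+ libraries, and the median was 0.16. Across all genes, 23.0% lay above and 15.4% below both +/+ libraries. Notch1, the receptor of T cell fate, was at 76.7 and 58.6 TPM in +/+ and 112 and 100 TPM in ∆HD/∆HD cells (log2 fold change 0.66, SE 0.14, adjusted p = 0.0930). Of 16 partners of the central domains, which include Tle3 and the TBP-associated factor gene Taf6, 0 passed in limma (1 at an unadjusted p under 0.05) or in either read-based test, and the median was 0.02.

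Of 34 genes of sterol and fatty acid handling, Abca1 rose and Cd36 fell in limma, and the median was 0.19. At an unadjusted p under 0.05 there were 13, and edgeR called 3 higher and 2 lower, DESeq2 5 higher and 4 lower. Of the 34, 12 lay above and 7 below both +/+ libraries (all genes: 23.0% above, 15.4% below). Srebf2, the regulator of cholesterol synthesis, was at 206 and 186 TPM against 270 and 253 TPM (adjusted p = 0.0992). Of 31 cell cycle genes 0 passed in limma (12 at an unadjusted p under 0.05, 0 in edgeR, and 2 in DESeq2, Aurka and Cdk1, both lower), with a median of −0.05. The share of all genes tested at an unadjusted p under 0.05 was 12.6%. Of 17 immediate-early genes 0 passed in limma (2 at an unadjusted p under 0.05) or in either read-based test, with a median of −0.07.

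The 5 lists of myeloid, erythroid and megakaryocyte markers had negative medians, but few members passed. The erythroid genes, which serve red cell precursors, summed to 4049 and 4260 TPM in +/+ cells and to 1594 and 1508 TPM in ∆HD/∆HD cells. Most of this was Hbb-b2, at 3274 and 3123 TPM against 988 and 901 TPM, while Hbb-b1, Hbb-bs, Hba-a1 and Hba-a2 were listed at 0 in all 4. Of 24 erythroid genes, 18 were below both +/+ libraries, the median log2 fold change was −1.40, and 0 passed in limma (13 at an unadjusted p under 0.05, 2 in edgeR and 10 in DESeq2, all lower). Across all genes, 15.4% lay below both +/+ libraries and 12.6% were at an unadjusted p under 0.05. The +/+ replicates 1, 2 and 5 summed to 1584 to 2336 TPM, so the ∆HD/∆HD sums were at or below their lower end.

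The 24 neutrophil-lineage genes had a median of −1.26 and 0 calls in limma (0 at an unadjusted p under 0.05) or in either read-based test. Eosinophil, basophil and mast cell genes summed to 141 and 367 TPM in +/+ and to 30.5 and 81.6 TPM in ∆HD/∆HD cells. Of 11 tested, 0 passed in limma (3 at an unadjusted p under 0.05, 0 in edgeR and 1 in DESeq2), with a median of −1.99, and the mast cell genes Cma1, Tpsb2 and Il4 were at 0 in all 4. Megakaryocyte and platelet genes had a median of −0.72 over 9 tested, and 0 passed in limma (2 at an unadjusted p under 0.05, 0 in edgeR and 1 in DESeq2). The part of such cells in the other results was not tested.

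**Figure D3:**
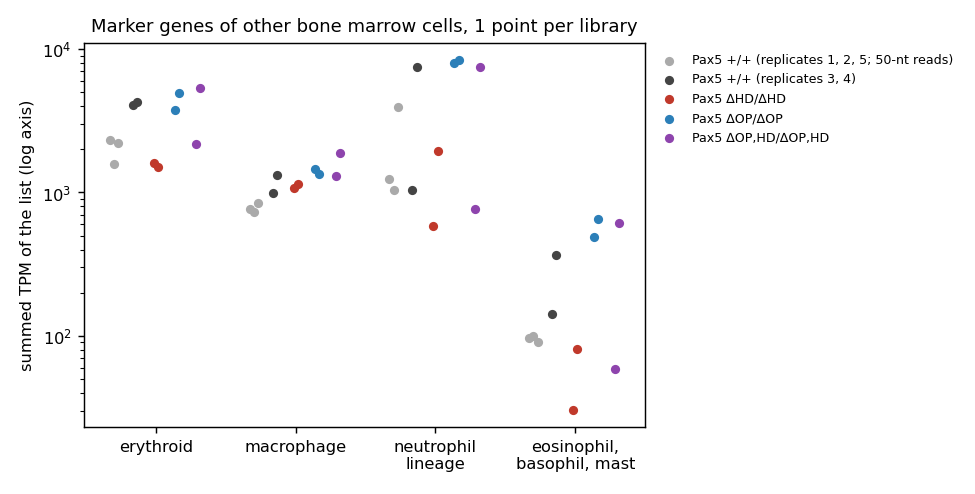
Summed TPM (logarithmic axis) of marker genes of 4 kinds of bone marrow cells, 1 point per library, for pro-B cells of the genotypes +/+ (50-nt and 100-nt reads), ∆HD/∆HD, ∆OP/∆OP and ∆OP,HD/∆OP,HD. Erythroid sums of both ∆HD/∆HD libraries lie below those of +/+ replicates 3 and 4, and the neutrophil-lineage sums spread widely within genotypes.

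Among markers of lymphoid and dendritic cells, limma called single genes, all higher. Of 14 T and NK cell genes, Lat, the adaptor of T cell receptor signalling, rose from 50.3 and 52.5 TPM to 94.6 and 86.2 TPM (1.76-fold, adjusted p = 0.0387). The list median was 0.02, and 7 of the 14 were at an unadjusted p under 0.05, against 12.6% of all genes. On recovered reads edgeR called Lat alone, and DESeq2 called Lat, Klrb1c and Tcf7, all higher. Of 14 dendritic cell genes, limma and edgeR called Ly6d alone, and DESeq2 called Ly6d and, as lower, Irf8. Their median was 0.35, with 3 at an unadjusted p under 0.05. The 20 genes of later B cells had a median of −0.04, and 1 rose in limma. At an unadjusted p under 0.05 there were 6, and DESeq2 called 2 higher and 2 lower. Stromal and endothelial genes (11 tested, median −0.62) and the 5 sex-linked genes (median −0.30) had 0 calls in limma, 0 at an unadjusted p under 0.05, and 0 in either read-based test.

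The same deletion was also present on a chromosome without the octapeptide, where ∆OP,HD/∆OP,HD can be set against ∆OP/∆OP. These 4 libraries share none with the comparison above, although all 8 were fitted together and share 1 estimate of the spread of each gene. There, 136 genes (1.11%) were called by the adjusted p and 30 passed the thresholds. Of the 81 genes called in ∆HD/∆HD cells, 51 were called again, 63.0% of the 81 and 37.5% of the 136, and all 51 in the same direction. In all, 77 of the 81 (95.1%) had the same sign, against 56.4% of all genes.

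Of the 24 genes past the thresholds, 12 were called again: Cd36, Col5a3, Dnase1l3, Enpep, Gas6, Grb7, Hdac11, Kcng1, Muc13, Pde9a, Spsb4 and Stum. Grb7 was at 154 and 175 TPM in ∆OP/∆OP and at 43.9 and 27.7 TPM in ∆OP,HD/∆OP,HD cells (log2 fold change −2.23, SE 0.26, adjusted p = 0.0119). Pde9a was at 45.4 and 51.6 TPM against 11.6 and 11.5 TPM (−2.06, SE 0.16, adjusted p = 0.00310), and Kcng1 at 15.4 and 17.0 TPM against 51.4 and 46.6 TPM (1.59, SE 0.12, adjusted p = 0.00310). The log2 changes of these 3 genes were close to those in ∆HD/∆HD cells, and in none did the groups overlap.

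Gas6 had a lower base without the octapeptide, at 1.09 and 1.06 TPM in ∆OP/∆OP and 5.97 and 6.51 TPM in ∆OP,HD/∆OP,HD cells (log2 fold change 2.43, SE 0.25, adjusted p = 0.00817). Of the genes called by the adjusted p alone, Ly6d was at 281 and 248 TPM against 746 and 811 TPM (1.56, SE 0.12, adjusted p = 0.00357), and Bfsp2 at 682 and 644 TPM against 248 and 268 TPM (−1.36, SE 0.16, adjusted p = 0.0124). Myl10, a myosin light chain gene chosen after its values were seen, had a log2 change of 1.11 in ∆HD/∆HD against +/+ cells (SE 0.17) and of 2.29 between ∆OP,HD/∆OP,HD and ∆OP/∆OP cells (SE 0.17), and the difference between these changes did not pass (adjusted p = 0.682).

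The other 12 of the 24 were not called there. C1qa was at 19.3 and 22.7 TPM in ∆OP/∆OP and 11.9 and 20.8 TPM in ∆OP,HD/∆OP,HD cells (adjusted p = 0.600), and Hmox1 at 36.2 and 31.0 TPM against 22.4 and 35.2 TPM (adjusted p = 0.692). C1qc and Fcna did not pass either, and in all 4 of these macrophage genes the groups overlapped. Cacna1e (17.0 and 15.5 TPM against 9.22 and 7.75 TPM, adjusted p = 0.0688) and Spns2 (8.48 and 8.39 TPM against 17.9 and 14.8 TPM, adjusted p = 0.0567) kept their direction without overlap.

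With all 8 libraries, a test of the difference itself called Ptpn3 alone as differing in the effect of the deletion between the backgrounds (interaction −3.30 on the log2 scale, adjusted p = 0.0469, in limma). The call was lost with a pseudocount of 1 TPM (adjusted p = 0.121) and with any 1 of the 8 libraries left out (adjusted p = 0.144 to 0.62), and without a trend of the spread TCRB_Jb2-S7 was called beside it. Ptpn3 was at 10.9 and 9.76 TPM in ∆OP/∆OP and at 13.7 and 11.9 TPM in ∆OP,HD/∆OP,HD cells, so that all 6 libraries of the 3 mutants stood near the same level and both +/+ libraries below 1 TPM. It lies 12.5 Mb from Pax5, where the deletions and sequence linked to each allele cannot be told apart. For Abca1, at 10.1 and 9.04 TPM against 14.6 and 10.1 TPM, and Zkscan16, at 6.32 and 5.02 TPM against 6.01 and 4.38 TPM, the difference between backgrounds did not pass (adjusted p = 0.682 and 0.692). At an unadjusted p under 0.05, 858 genes (6.99%) differed between the backgrounds.

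**Figure D4:**
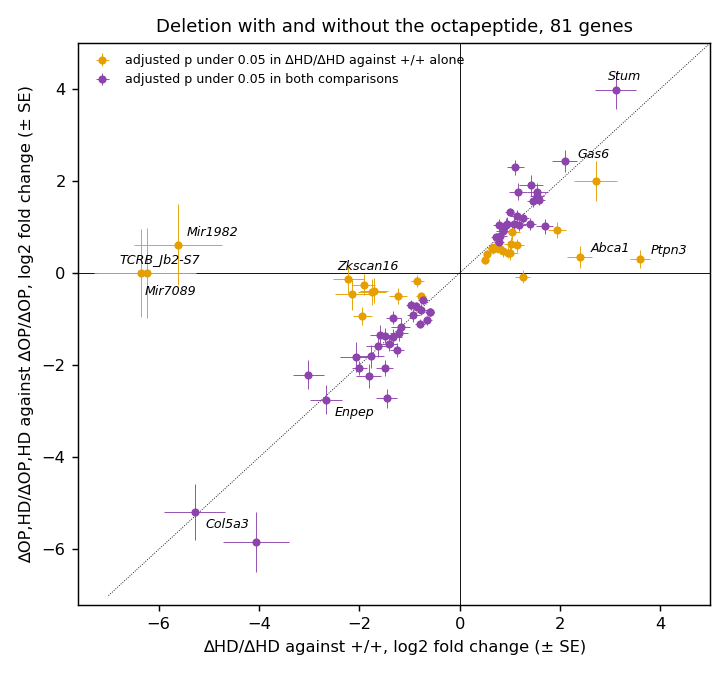
Log2 fold change (± SE) of the 81 genes called in ∆HD/∆HD against +/+ cells (horizontal axis) and in ∆OP,HD/∆OP,HD against ∆OP/∆OP cells (vertical axis), with the diagonal dotted. The 51 genes called in both (purple) lie in the quadrants of equal sign, while Ptpn3, Abca1 and Zkscan16 lie near 0 on the vertical axis and the 3 short features have wide errors.

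Set directly against each other, ∆HD/∆HD and ∆OP/∆OP cells differed in 474 genes (3.86%) by the adjusted p, and 86 passed the thresholds, 58 of them lower in ∆HD/∆HD cells. In contrast, ∆HD/∆HD and ∆OP,HD/∆OP,HD cells differed in 6 genes (0.0489%), of which 3 passed the thresholds. These comparisons share the ∆HD/∆HD libraries with the comparison above. The 6 genes are outside the rule for named genes. Rgs10, a regulator of G protein signalling, was at 23.4 and 21.4 TPM in ∆HD/∆HD and at 126 and 144 TPM in ∆OP,HD/∆OP,HD cells (log2 fold change −2.58, SE 0.12, adjusted p = 0.000513). Hnrnpll, a regulator of Ptprc splicing (−3.45), the methyltransferase gene Eef1akmt1 (−1.78), Dennd3 (−1.31) and the chaperone gene Dnajb5 (−1.50) were also lower in ∆HD/∆HD cells, and Aes, of the Groucho family, was higher (0.98). None of the 6 passed in ∆HD/∆HD against +/+ cells.

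To see how the genes behave without any Pax5, the progenitors were compared with +/+ replicates 1, 2 and 5 in a fit of 50-nt libraries, none of which enters the comparison above. There, 13.8% of 13093 genes were lower and 17.0% higher in the progenitors. Of the 40 genes lower in ∆HD/∆HD cells, 34 were also lower in the progenitors and 1 was higher. Of the 41 higher genes, 28 were also higher and 4 lower. The change was larger in the progenitors for 54 of the 81. The progenitors are an earlier stage and came through another gate, so loss of Pax5 and stage cannot be told apart.

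The size of the change set the genes apart. Grb7 was at 1.25 and 1.20 TPM in the progenitors and at 112 to 150 TPM in these +/+ libraries (log2 fold change −6.59, adjusted p = 1.98e-06), and Pde9a and Enpep stood at no more than 0.0629 TPM in the progenitors. Stum reached 244 and 274 TPM there, against 6.68 and 5.76 TPM in ∆HD/∆HD cells, and Spns2 113 and 111 TPM. Ly6d was at 3937 and 4060 TPM, but these progenitors were sorted as Ly6D+, so the gate itself selects for this gene. The genes of this paragraph other than Ly6d thus stood between the +/+ and the progenitor level in ∆HD/∆HD cells.

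A few genes did not. Gas6 rose in ∆HD/∆HD cells but was lower in the progenitors, at 1.05 and 1.31 TPM against 3.89 to 7.61 TPM (adjusted p = 0.00400). Abca1 was at 10.5 and 9.29 TPM in the progenitors and 10.7 to 17.4 TPM in these +/+ libraries (adjusted p = 0.128), and Muc13 and Trf did not pass (adjusted p = 0.143 and 0.241). Hdac11 fell by 1.56 in the progenitors on the log2 scale, against a fall by 1.62 in ∆HD/∆HD cells.

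Some of the called genes lie near Pax5 on chromosome 4. Within 25 Mb of Pax5, 6 of 187 genes tested (3.21%) passed the adjusted p, 5 of them higher, against 4 of 575 (0.696%) on the rest of the chromosome and 70 of 11504 (0.608%) on other chromosomes. The difference between these shares was not tested. The 6 genes were 5730488B01Rik, Coro2a, Abca1, Ptpn3, Zkscan16 and Alad, at 0.0, 1.8, 8.3, 12.5, 14.2 and 17.8 Mb. The allele was made in hybrid zygotes and, by the methods of the study, backcrossed to C57BL/6 over several generations before use. The deletion and any CBA sequence still kept beside it cannot be told apart. By the same methods, ∆OP was made by targeting in embryonic stem cells, and ∆OP,HD by deleting the HD in ∆OP/∆OP zygotes. The ∆OP and ∆OP,HD alleles thus go back to the same targeted chromosome. For genes in this window, the deletions and sequence linked to each allele cannot be told apart. Without genes in this window, 21 genes stayed past the thresholds.

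The 6 genes had different patterns over the genotypes. Alad (chr4:62505984-62520063) was at 43.1 and 37.0 TPM in +/+ and at 92.0 and 99.0 TPM in ∆HD/∆HD cells, and at 68.9 to 90.5 TPM in the 4 libraries without the octapeptide. In the 15 other libraries with the same gene names it lay between 27.9 and 39.7 TPM, below all libraries of the 3 central-domain mutants. Of these mutants, ∆OP and ∆OP,HD are not independent, since they go back to the same targeted chromosome. Abca1 was at 45.0 and 44.8 TPM in ∆HD/∆HD cells alone, and at 5.63 to 17.4 TPM in these 15 libraries.

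Ptpn3 was high in the 3 central-domain mutants and, at 24.6 and 18.0 TPM, in the progenitors, and below 1 TPM in all others. Coro2a (chr4:46536937-46601929) rose from 69.8 and 64.3 TPM to 122 and 112 TPM in ∆HD/∆HD cells, and was at 58.7 and 55.4 TPM in ∆OP/∆OP cells and 52.2 to 314 TPM in the 15 others. 5730488B01Rik, a non-coding gene within the Pax5 locus on the opposite strand (chr4:44702800-44705110), rose from 8.15 and 9.84 TPM to 18.7 and 17.7 TPM (2.02-fold, adjusted p = 0.0387). Whether the counting used strand is not given in the sources used here, so its reads and those of Pax5 may not be separable.

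**Figure D5:**
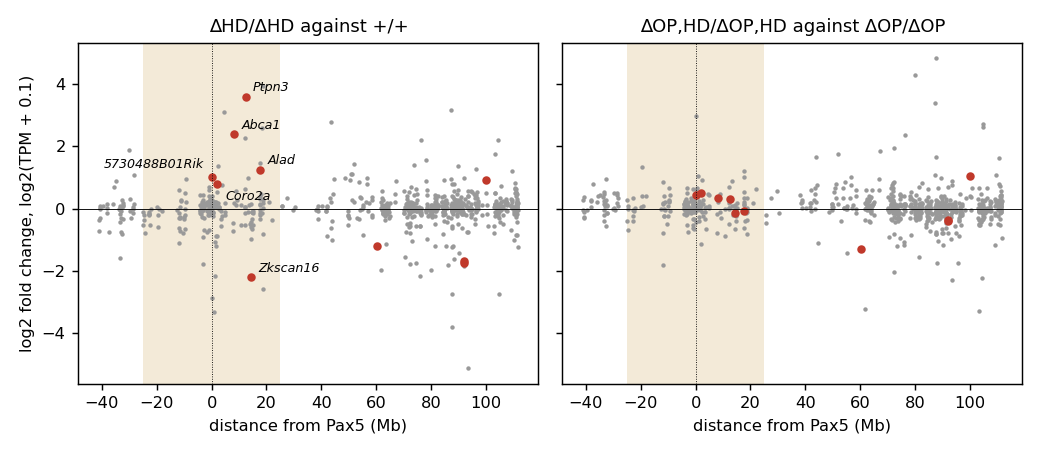
Log2 fold change of genes on chromosome 4 against their distance from Pax5 in Mb, for ∆HD/∆HD against +/+ (left) and ∆OP,HD/∆OP,HD against ∆OP/∆OP (right), with the window of 25 Mb shaded. Red points are the genes called in ∆HD/∆HD against +/+ cells, of which 6 lie in the window and have log2 changes between −0.13 and 0.51 on the right.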

How the data were processed

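RNA libraries of bone marrow pro-B cells were grouped by the genotype in their labels. The authors trimmed reads to 50 bases, aligned them to GRCm38/mm10 with STAR 2.4.2a (per the labels and methods), assigned them to genes (Rsubread) and deposited the TPM of 25579 genes. The deposited raw counts of +/+ replicate 3 were used to infer gene lengths, with which 100% of the TPM values tested gave whole reads (within 0.05 reads).

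limma 3.58.1 (R 4.3.3) was fitted to log2(TPM + 0.1) of 8 libraries (+/+ replicates 3 and 4, ∆HD/∆HD, ∆OP/∆OP and ∆OP,HD/∆OP,HD, replicates 1 and 2) with a trend of the spread on the mean, which left 4 residual degrees of freedom. Tests were two-sided, with Benjamini-Hochberg adjustment over all 12562 genes above 1 TPM in at least 1 of the 4 libraries compared. Fold changes are on this log scale, which understates those of low genes. Immunoglobulin and histone genes (214 and 66 tested, 2 called) were not counted, following the study. An exact permutation test of 2 against 2 libraries cannot go below p = 0.333. The 50-nt libraries were fitted apart (progenitors, +/+ replicates 1, 2 and 5, ∆CRD1/∆CRD1). The contrast of ∆OP,HD/∆OP,HD with ∆OP/∆OP and the interaction were added after the data were seen. edgeR 4.0.16 (quasi-likelihood) and DESeq2 1.42.0 were run on recovered reads, which exist for 12483 of the genes. The fit was tested on simulated data with 200 changed genes.

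Genes were named as follows: all past the thresholds, Pax5, the called members and up to 4 of the highest members of 7 pathway and 10 marker lists, up to 10 further called genes in each direction by p, and called genes within 25 Mb of Pax5. Members and lists were chosen with earlier results of these data known. The size of the deletion was read by placing the repair template of the study on GRCm38.p6. Some items that the rule names are not reported here.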

Additional observations from a re-analysis of the deposited data

Results flagged for a closer look

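Among the 5 +/+ libraries, 67 checks for a single library far from the others were made, over named genes and marker lists, and chance gives such a library in about 1 of 20 checks. The 5 libraries mix 50-nt and 100-nt reads. In 4 checks 1 library stood apart. The summed level of eosinophil, basophil and mast cell genes was 366.6 TPM in +/+ replicate 4, against 90.7 to 141.4 TPM in the other 4. Gas6 was at 7.61 TPM, Spns2 at 9.18 TPM and Lat at 76.3 TPM in +/+ replicate 2, which has 50-nt reads and is not in the comparison with ∆HD/∆HD cells.

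For Ptpn3 the effect of the deletion differed between the backgrounds with and without the octapeptide, by −3.3 on the log2 scale (limma interaction, adjusted p = 0.0469). The gene lies 12.5 Mb from Pax5, where the deletions and sequence linked to each allele cannot be told apart. The call was lost with a pseudocount of 1 TPM (adjusted p = 0.121) and with any 1 of the 8 libraries left out (adjusted p = 0.144 to 0.62).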

How the results depend on the processing

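With all 8 libraries kept, the 24 genes past the thresholds became 15 without a filter on low values, 12 without a trend of the spread and 41 in DESeq2, and the 81 genes by adjusted p became 47, 31 and 463, and 199 in edgeR. The 4 libraries alone gave 0 for each in limma (1117 at an unadjusted p under 0.05). Leaving out 1 library gave 0 to 3 for each, and the share that was lower, 70.8% with all, was 33.3% without +/+ replicate 4. It was 50% to 78.0% over the settings with all libraries. Of the 49 named genes that were called, 0 turned direction, 16 were called in every setting that kept 8 libraries, and 3 of 196 pairs of gene and left-out library kept the call. The fewer residual degrees of freedom are part of these alternatives by construction.

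The 86 genes between ∆HD/∆HD and ∆OP/∆OP became 56 without a trend and 0 to 42 with 1 library left out. The 3 between ∆HD/∆HD and ∆OP,HD/∆OP,HD became 0 to 1 with 1 left out. The 30 between ∆OP,HD/∆OP,HD and ∆OP/∆OP became 15 without a trend and 6 to 17 with 1 left out. The 1 gene of the interaction became 0 with a pseudocount of 1 TPM (893 at an unadjusted p under 0.05), 2 without a trend and 0 to 1 with 1 left out, where the gene called was not Ptpn3. The cause of these changes was not tested. The 4025 genes of the progenitors stayed within 1.5 times.

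Replicate numbers are shared by ∆HD/∆HD, ∆OP/∆OP and ∆OP,HD/∆OP,HD, and the deviations of same-numbered libraries correlated at 0.0127, 0.1023 and 0.0089, so the numbers were not taken as pairs. With the replicate number as a block, the counts were 37 (∆HD/∆HD against ∆OP/∆OP), 0 (∆HD/∆HD against ∆OP,HD/∆OP,HD, 975 at an unadjusted p under 0.05 in limma) and 0 (∆OP,HD/∆OP,HD against ∆OP/∆OP, 2019). For ∆HD/∆HD against +/+ the replicate numbers differ and the labels give no pairs, so no paired analysis was made. The study states that its mouse experiments used littermates, and whether these libraries were paired was not tested.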
